A study of Homo sapiens with 6 samples.

Results

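The 9 genes described here are widely used as markers of cancer stem cells, and they were followed after knockdown of GXYLT2 in the established gastric cancer line HGC-27. They were chosen by name, as the rows of the count table with the symbols CD44, PROM1, CD24, POU5F1, NANOG, NES, DCLK1, THY1 and CXCR4, and all 9 symbols were found once each among 62703 genes. Messenger RNA was sequenced from 3 libraries of cells with an shRNA against GXYLT2 (shGXYLT2; genotype given as GXYLT2 knockdown) and 3 libraries of cells with a control shRNA (shControl; genotype given as WT), all grown with 10% fetal bovine serum. The knockdown cells are a stably transfected strain. No source used here gives the shRNA sequence, the number of clones or whether replicates were separate cultures. The p-values therefore measure the spread between these libraries alone, and that spread may be technical. Stemness is 1 of the malignant traits that the study's title names. The comparison covers RNA levels of marker genes and does not measure stemness itself.

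Markers of this kind mark tumour cells with a high capacity to self-renew and to seed new tumours in assays of sorted cells. CD44, CD24, THY1 and PROM1 are surface proteins, and CXCR4 is a surface receptor that guides migration. NES and DCLK1 belong to the cytoskeleton of progenitor cells, and POU5F1 and NANOG are transcription factors that hold embryonic stem cells in the pluripotent state. In gastric tumours CD44 is the most used of these markers for sorting.

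Knockdown was visible in every shGXYLT2 library. GXYLT2, the xylosyltransferase gene targeted by the shRNA, lay at 5.27, 6.27 and 5.34 CPM (counts scaled to library size by TMM factors) in the shGXYLT2 libraries, against 20.7, 22.8 and 20.2 CPM in the shControl libraries. Library totals were 22188073 to 24898425 estimated counts in shGXYLT2 and 17291138 to 22540099 in shControl. The shGXYLT2 libraries differed more from each other than the shControl libraries did. Their pairwise chi-square of counts per degree of freedom was 5.86 (replicates 1 and 2), 8.56 (replicates 1 and 3) and 10.95 (replicates 2 and 3), against 1.95 to 3.97 between shControl libraries, and it was 8.54 to 18.7 between groups.

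The labels call the cells gastric cancer cells, and most epithelial and gastric markers were at or near 0. EPCAM, the epithelial adhesion molecule, averaged 0.109 CPM in shGXYLT2 and 0.151 CPM in shControl, and KRT18, KRT19, MUC5AC, TFF1 and TFF2 had at most 2 counts in any library. CDH1, epithelial cadherin, averaged 2.33 and 2.92 CPM in shGXYLT2 and shControl. Of 24 epithelial and gastric genes found in the table, 9 had no count in any library and 6 were tested. Of those tested MUC6, a gastric gland mucin, rose (4.22 against 2.05 CPM, edgeR adjusted p = 0.0029) and 0 fell. The 24 genes summed to 22.0 to 23.3 CPM in shGXYLT2 and 20.6 to 21.8 CPM in shControl, scaled to library totals. That sum includes genes not named here. Fibroblast genes, among which THY1 is itself counted, were all tested and abundant, with a summed level of 5827 to 6293 CPM in shGXYLT2 and 6276 to 6514 CPM in shControl, scaled to library totals.

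Of the 9 genes 6 passed the filter on low counts and were tested, 3 of them with a changed level: DCLK1 rose, and THY1 and NES fell (adjusted p below 0.05 by the quasi-likelihood test of edgeR with Benjamini-Hochberg adjustment). Among all 15693 tested genes 12.2% passed, 5.31% upward and 6.84% downward. CD44, CD24 and CXCR4 were tested and did not pass, PROM1 had 0 counts in every library, and POU5F1 and NANOG lay under the filter. The tested genes had a median log2 fold change of -0.32, against -0.01 over all tested genes, and all 6 had groups of libraries that did not overlap, as did 30.5% of all tested genes. These values describe the genes that passed the filter and carry no test.

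**Figure D1:**
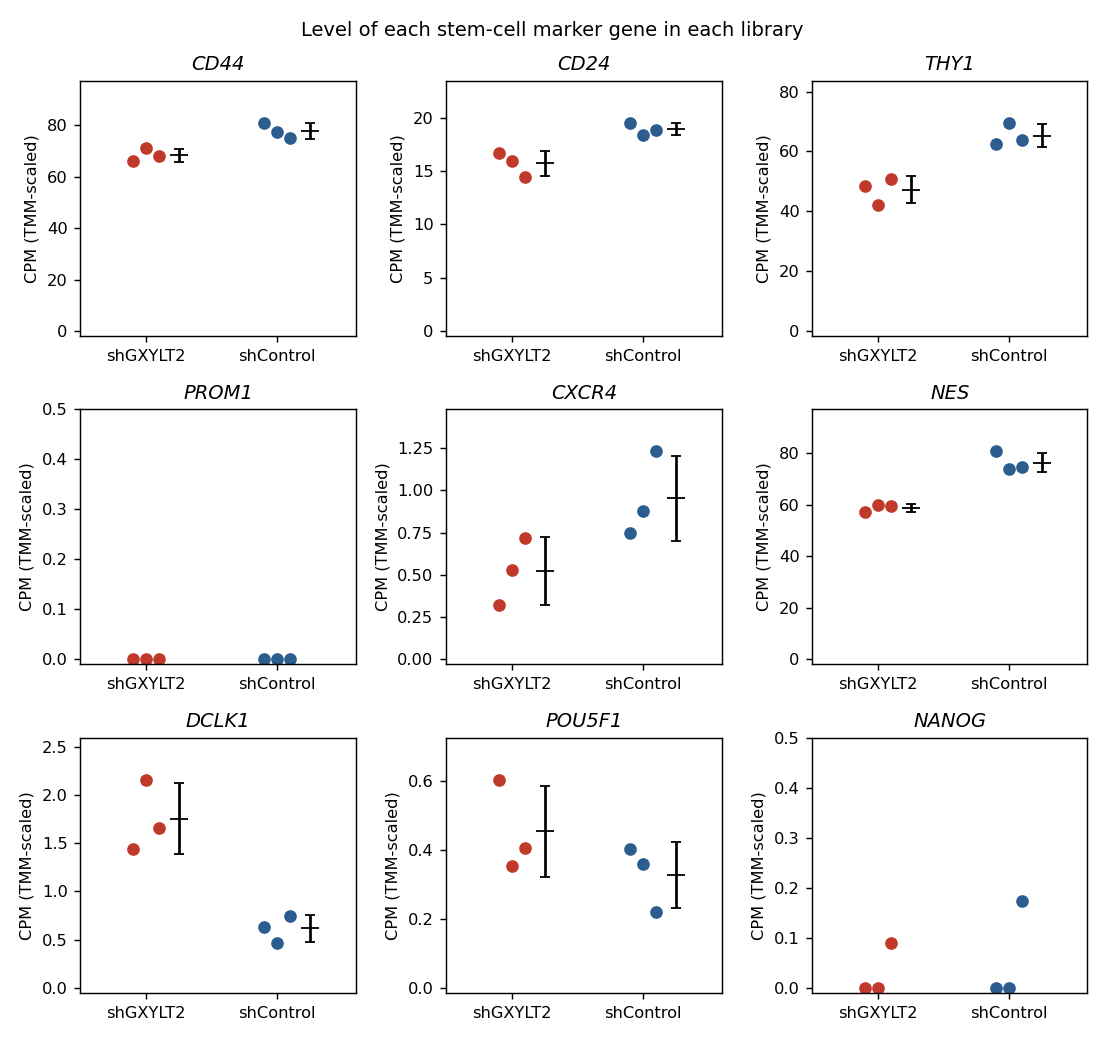
Level of each of the 9 marker genes in CPM (TMM-scaled) in each of 3 shGXYLT2 libraries (red, left) and 3 shControl libraries (blue, right), with the mean and SD in black except for PROM1 and NANOG. CD44, CD24, THY1, CXCR4 and NES are lower and DCLK1 is higher in all 3 shGXYLT2 libraries, PROM1 is at 0, and POU5F1 and NANOG overlap.

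Among the surface proteins THY1 passed the test. THY1 (CD90) is a small GPI-anchored protein of the immunoglobulin superfamily, found on fibroblasts and neurons. Its gene lies at chr11:119417378-119424985 (GRCh38) on the minus strand. It had 48.5, 42.2 and 50.9 CPM in the shGXYLT2 libraries, against 62.4, 69.6 and 63.7 CPM in the shControl libraries. The highest shGXYLT2 library stood below the lowest shControl library. The mean fell to 47.2 ± 4.48 CPM in shGXYLT2, against 65.3 ± 3.82 CPM in shControl (SD, n = 3 each), a log2 fold change of -0.47 (SE 0.0762, edgeR adjusted p = 3.9e-04). In these bulk libraries fewer THY1-expressing cells and less THY1 RNA per cell cannot be told apart.

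Of the 9 genes only THY1 held the word GACTCAT in its longest annotated 3' UTR. That is 11.1% of them, near the 8.35% over tested genes given below. This word was searched for because an earlier search of these data, made with the fold changes known, had picked it out. Among 12373 tested genes with a 3' UTR of at least 100 bases, 8.35% held the word. It was held by 25.4% of the 970 of these that fell and 5.15% of the 758 that rose. Since the word was picked with these same fold changes known, the difference between these shares carries no evidence. The length of the 3' UTRs was not taken into account. Of 5 annotated coding transcripts of THY1 only 1 held it. No annotated coding transcript of the other 8 genes held it at any position. In THY1 it starts at base 1956 of a 3' UTR of 2030 bases, and in the longest GXYLT2 transcript it starts at base 645 of 3260, in the coding part. Both sites, shown because THY1 is a gene that fell and GXYLT2 is the target of the shRNA, share 9 bases in a row that include the word; capitals mark the word, and the strands are minus for THY1 at chr11:119417436-119417462 and plus for GXYLT2 at chr3:72922209-72922235 (GENCODE release 29 transcripts, GRCh38):
THY1: cccagaggctGACTCATctgatattta
GXYLT2: ccagtggcctGACTCATatacaaagaa
The match is a description of letters, and its part in the fall of THY1 was not tested.

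A pair of antisense genes lies over THY1, and its estimated counts were partly fractional. The strand setting of the counting is not stated, and reads of THY1 and of these genes may have been split. THY1-AS1 averaged 3.16 ± 0.811 CPM in shGXYLT2 and 2.22 ± 0.838 CPM in shControl (SD, n = 3 each; edgeR adjusted p = 0.23). USP2-AS1 averaged 2.66 and 2.54 CPM in shGXYLT2 and shControl (edgeR adjusted p = 0.89). Summed over the 3 genes the level was 53.0 ± 4.04 CPM in shGXYLT2 and 70.0 ± 2.84 CPM in shControl (SD, n = 3 each; exact two-sided permutation p = 0.1, the lowest possible with 3 libraries a group). The log2 ratio of these means was -0.40, against -0.47 for THY1 alone.

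CD44, the main cell-surface receptor for hyaluronan, stood just short of the threshold. Its gene lies at chr11:35138870-35232402 on the plus strand. It had 65.9, 71.0 and 67.9 CPM in the shGXYLT2 libraries, against 80.9, 77.2 and 75.0 CPM in the shControl libraries, so that the groups did not overlap. The means were 68.3 ± 2.57 CPM in shGXYLT2 and 77.7 ± 2.98 CPM in shControl (SD, n = 3 each), with a log2 fold change of -0.19, a 95% interval of -0.32 to -0.05 and an edgeR adjusted p of 0.064. It passed in 2 of 14 alternatives, without shGXYLT2 replicate 2 (adjusted p = 0.044) and without shGXYLT2 replicate 3 (adjusted p = 0.041), and its adjusted p ran from 0.0413 to 0.303 over all of them. The table counts reads per gene, so standard and variant forms of CD44 were not separated.

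CD24 is a short, heavily glycosylated GPI-anchored protein that binds P-selectin and the inhibitory receptor Siglec-10. From its locus at chr6:106969831-106975627 on the minus strand it had 16.7, 16.0 and 14.5 CPM in the shGXYLT2 libraries, against 19.5, 18.4 and 18.8 CPM in the shControl libraries. The groups did not overlap, and the log2 fold change was -0.27 with a 95% interval of -0.46 to -0.07 (edgeR adjusted p = 0.066). It passed in 0 of 14 alternatives, with edgeR, DESeq2 or voom adjusted p-values of 0.0615 to 0.236. Pseudogenes of CD24 took no reads: the 3 listed had 0 counts in every library.

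Cells with high CD44 and low CD24 are a sorted population in several carcinomas, and the ratio of the genes did not separate the groups here. Such cells are sorted by surface protein, and a ratio of bulk RNA counts cannot show whether their number changed. CD44 had 3.94, 4.45 and 4.69 counts for each CD24 count in the shGXYLT2 libraries, against 4.14, 4.19 and 3.99 in the shControl libraries. The ratio averaged 4.36 ± 0.385 in shGXYLT2 and 4.11 ± 0.108 in shControl (SD, n = 3 each; exact two-sided permutation p = 0.4), and the ranges overlapped.

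PROM1 encodes prominin-1 (CD133), a glycoprotein of membrane protrusions and the antigen most often used to sort stem-like cells of brain and colon tumours. It had 0 counts in all 6 libraries, which allows up to 0.120 to 0.135 CPM in an shGXYLT2 library and 0.133 to 0.173 CPM in an shControl library (3 counts, counting error only). CXCR4, the receptor for the chemokine CXCL12, was low, with 8, 13 and 16 counts in the shGXYLT2 libraries, against 13, 15 and 28 in the shControl libraries. These gave 0.320, 0.529 and 0.719 CPM in shGXYLT2, against 0.747, 0.879 and 1.23 CPM in shControl, and the groups did not overlap, by a narrow margin. The log2 fold change was -0.90 with a wide 95% interval of -1.68 to -0.11 (edgeR adjusted p = 0.14, and 0.48 without shControl replicate 3). CXCR4 passed the filter with all 3 shControl libraries and 2 shGXYLT2 libraries at or above its level of 0.447 CPM.

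Both cytoskeletal genes changed, in opposite directions. NES encodes nestin, an intermediate filament protein of neural stem and progenitor cells that many tumours re-express, at chr1:156668763-156677397 on the minus strand. It had 57.1, 60.1 and 59.6 CPM in the shGXYLT2 libraries, against 80.9, 73.9 and 74.6 CPM in the shControl libraries. All shGXYLT2 libraries stood well below all shControl libraries, and within shGXYLT2 they differed little. The mean fell to 58.9 ± 1.58 CPM in shGXYLT2, against 76.5 ± 3.84 CPM in shControl (SD, n = 3 each), 22.9% lower by the fit, with a log2 fold change of -0.37 (SE 0.0649, edgeR adjusted p = 6.9e-04). No gene overlaps NES in GENCODE release 29.

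DCLK1, a microtubule-associated kinase of the doublecortin family that marks tuft cells of the gut, gave the largest relative change among the 6 tested markers. Its gene spans chr13:35768652-36131306 on the minus strand. It had 36, 53 and 37 counts in the shGXYLT2 libraries, against 11, 8 and 17 in the shControl libraries. In CPM these were 1.44, 2.16 and 1.66 in shGXYLT2, against 0.632, 0.469 and 0.748 in shControl, so that every shGXYLT2 library exceeded every shControl library. The fitted change was 2.79-fold (log2 fold change 1.48, SE 0.309, 95% interval 0.83 to 2.12, edgeR adjusted p = 0.0034), higher than that of 99.7% of tested genes. The level after the rise was still low, with a mean of 1.75 CPM in shGXYLT2. Averaged over all 6 libraries, the level of DCLK1 exceeded that of 14.4% of tested genes. Long and short forms of DCLK1, which come from different promoters, were not separated.

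**Figure D2:**
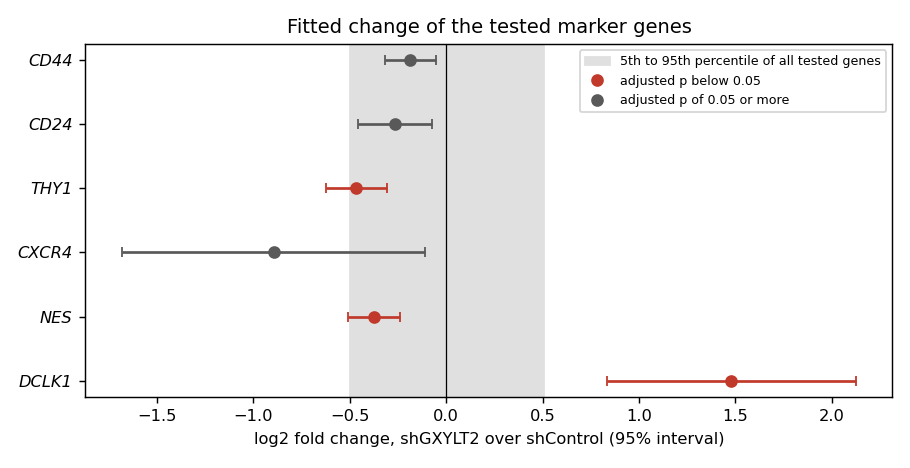
Log2 fold change (shGXYLT2 over shControl) of the 6 tested marker genes with 95% intervals from the edgeR fit; red marks an adjusted p below 0.05, and the grey band holds the 5th to 95th percentile of all tested genes. DCLK1 lies above the band at 1.48, THY1 (-0.47) and NES (-0.37) lie within it with narrow intervals, and CXCR4 (-0.90) lies below it with a wide one.

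The pluripotency factors were close to the limit of detection. POU5F1 (OCT4) had 15.1, 8.68 and 9 estimated counts in the shGXYLT2 libraries, against 7, 6.11 and 5 in the shControl libraries, and in CPM the groups overlapped (exact two-sided permutation p = 0.4). The summed counts gave 0.460 CPM (95% exact Poisson interval 0.317 to 0.646, counting error only) in shGXYLT2 and 0.314 CPM (0.186 to 0.496) in shControl. TCF19, a coding gene on the other strand that overlaps the end of POU5F1, rose to 41.7 ± 2.06 CPM in shGXYLT2, against 34.5 ± 0.327 CPM in shControl (SD, n = 3 each; edgeR adjusted p = 0.017), and its part in the POU5F1 counts was not tested. NANOG had 0, 0 and 1.99 estimated counts in shGXYLT2, against 0, 0 and 3.96 in shControl. The 5 POU5F1 and 11 NANOG pseudogenes examined had at most 2 and 4 counts in a library, so reads given to these genes and to near-identical copies are uncertain. Copies not named as numbered pseudogenes, such as POU5F1B, were not examined.

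Compared per length, THY1 had the highest mean of the 9 genes in both groups, but by a margin that the gene length set. With the length column of the deposited table, which gives 581 bases for THY1, its level was 81.3 ± 7.71 CPM per kilobase in shGXYLT2 and 112 ± 6.57 in shControl (SD, n = 3 each). With the longest annotated coding transcript, of 3556 bases, it was 13.3 ± 1.26 and 18.4 ± 1.07 CPM per kilobase in shGXYLT2 and shControl. By that measure the shGXYLT2 libraries of THY1 (11.9 to 14.3) and CD44 (11.5 to 12.4) overlapped, so their order there is not set. CD24 came next with the table length of 825 bases, at 19.1 CPM per kilobase in shGXYLT2 and 22.9 in shControl, and stood below CD44 and NES with a length of 2513 bases, at 6.26 in shGXYLT2 and 7.53 in shControl. With the table length CD44 and NES stood at 12.6 and 10.6 CPM per kilobase in shGXYLT2, where their ranges did not overlap, and at 14.3 and 13.7 in shControl, where they did. CXCR4, POU5F1 and DCLK1 averaged 0.276, 0.322 and 0.209 CPM per kilobase in shGXYLT2, with overlapping ranges and so no set order, and 0.503, 0.232 and 0.0734 in shControl. The longest transcript as a length was chosen after the data were seen.

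**Figure D3:**
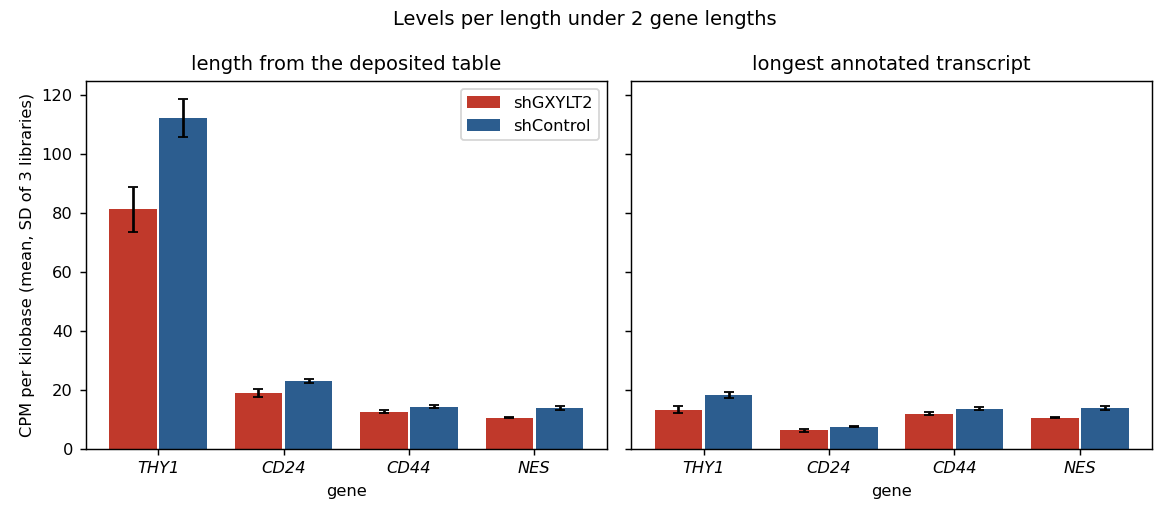
Level in CPM per kilobase (mean and SD of 3 libraries) of the 4 abundant marker genes in shGXYLT2 (red, left bars) and shControl (blue, right bars), with the gene length of the deposited table (left panel) and the longest annotated coding transcript (right panel). THY1 reads 112 in shControl with the first length and 18.4 with the second, while CD44 and NES barely move.

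The genes whose levels ran most like each changed marker over the 6 libraries were searched among all other tested genes whose mean log2 CPM was 3 or more. The likeness is Pearson's r of log2 CPM, given as a description because all libraries share the group difference. For NES they were BET1 (r = 0.998), a SNARE protein of Golgi transport, GPATCH4 (r = 0.997), whose gene lies 67267 bases from NES on chromosome 1, and ENSG00000290931 (r = 0.995). For THY1 they were MRTFA (0.997), a co-activator of actin-regulated transcription, AFAP1 (0.997), an actin filament-associated protein, and HPS1 (0.994). For DCLK1, whose low counts make r less certain, they were CCNK (0.994), SERPINB6 (0.992) and ACAD10 (0.992). MRTFA itself averaged 13.2 CPM in shGXYLT2 and 19.6 CPM in shControl (edgeR adjusted p = 8.7e-04).

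The partners of CD44 moved in both directions. For these and every list below, the shares over all tested genes were 5.31% risen and 6.84% fallen. Of 18 tested genes of hyaluronan metabolism and CD44 partners 3 rose and 5 fell, with a median log2 fold change of -0.07. SLC7A11, the cystine transporter that variant CD44 stabilises, fell to 82.7 ± 11.1 CPM in shGXYLT2, against 132 ± 8.75 CPM in shControl (SD, n = 3 each; edgeR adjusted p = 4.6e-05). EZR, which ties the CD44 tail to actin, fell to 104 CPM in shGXYLT2, against 140 CPM in shControl, and TIMP3, an inhibitor of matrix proteases, to 105 CPM, against 134 CPM. HMMR, another hyaluronan receptor, MMP14, a membrane protease that sheds CD44, and CEMIP2, a cell-surface protein linked to hyaluronan breakdown, rose by 0.33, 0.23 and 0.20 on the log2 scale. The rises numbered 1 without each of shControl replicates 1, 2 and 3, and the falls 3 without shControl replicate 1 or 2. Of 12 tested splicing factors that act on CD44 exons 1 fell, SNRPB, a core spliceosome protein (220 against 277 CPM, log2 fold change -0.33), and 0 rose.

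The CXCR4 ligand CXCL12 had 0 counts in all 6 libraries, and the second CXCL12 receptor ACKR3 averaged 0.0704 CPM in shGXYLT2 and 0.112 CPM in shControl. Of 20 tested genes of the CXCR4 axis 2 fell and 0 rose, with a median of -0.03. RGS16, which shortens G protein signals, had 2.92, 3.18 and 4.36 CPM in the shGXYLT2 libraries, against 5.92, 8.79 and 6.51 CPM in the shControl libraries (log2 fold change -1.02, edgeR adjusted p = 8.8e-04). The chemokine CXCL14 averaged 0.638 CPM in shGXYLT2 and 1.58 CPM in shControl (adjusted p = 0.013) and passed in 11 of 14 alternatives. With 1 library left out the falls numbered 1 without shControl replicate 2 or 3 or shGXYLT2 replicate 2, and 1 gene rose without any of the shGXYLT2 replicates or with no filter on low counts.

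CD24 and THY1 are both held in the membrane by a GPI anchor. Of 32 tested genes of GPI anchor synthesis 1 rose and 0 fell, with a median of 0.05. By edgeR 5 of the 32 had an unadjusted p below 0.05, all upward. This is a smaller share than the 25.5% of all tested genes, both directions together. The gene that rose was PIGY, part of the first enzyme of the pathway, at 42.7 CPM in shGXYLT2 and 36.4 CPM in shControl (edgeR adjusted p = 0.044); it passed in 5 of 14 alternatives and shares a transcript with PYURF. The rises numbered 0 without shControl replicates 1, 2 or 3 or shGXYLT2 replicate 2, and without shGXYLT2 replicate 3 there were 2 rises and 1 fall. Of 17 tested partners of THY1 and CD24 3 fell and 0 rose. These were PAG1, a raft adaptor that recruits CSK (17.6 against 25.6 CPM in shGXYLT2 and shControl, log2 fold change -0.54), ITGB3, the beta subunit of an integrin that binds THY1 (1.11 against 2.08 CPM), and CAVIN1, a coat protein of caveolae (161 against 196 CPM). Without shGXYLT2 replicate 3 there was also 1 rise.

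Of 21 tested genes for other surface markers of stem-like tumour cells 1 rose and 3 fell, with a median of -0.02. LGR4, a receptor for R-spondins, had 135, 134 and 114 CPM in the shGXYLT2 libraries, against 182, 175 and 170 CPM in the shControl libraries (log2 fold change -0.46, edgeR adjusted p = 1.1e-04). TNFRSF19 (TROY), a marker of stem cells in the gastric corpus of the mouse, and MCAM, an adhesion molecule, fell by 0.41 and 0.27 on the log2 scale. The drug efflux pump ABCB1 rose at low counts, to 1.30 CPM in shGXYLT2, against 0.602 CPM in shControl (adjusted p = 0.046), but passed in 4 of 13 alternatives; the rises numbered 0 when any library but shGXYLT2 replicate 3 was left out and 3 without that one. LGR5, the R-spondin receptor that marks intestinal and antral stem cells, had at most 1 count in a library.

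Of 15 tested pluripotency and reprogramming factors 2 rose and 4 fell, with a median of -0.07. MYC fell to 212 CPM in shGXYLT2, against 268 CPM in shControl (edgeR adjusted p = 0.0023), and ESRRB, a nuclear receptor of the embryonic stem cell network, to 2.88 CPM, against 4.75 CPM. LIN28B, which blocks maturation of let-7, and KLF5, a factor of epithelial progenitors, fell by 0.30 and 0.20 on the log2 scale and passed in 7 and 3 of 14 alternatives. KLF4 rose to 5.03 CPM in shGXYLT2, against 3.05 CPM in shControl, and TBX3 to 69.7 CPM, against 56.9 CPM. SOX2 had at most 5 counts in a library. Leaving out shControl replicate 1 left 1 fall, leaving out shControl replicate 2 or 3 or shGXYLT2 replicate 1 or 3 left 2, and leaving out shControl replicate 3 left 1 rise.

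Among 16 tested genes of gastric stem and progenitor cells 2 rose, DCLK1 and RNF43, and 2 fell, TNFRSF19 and KLF5, with a median of 0.02. RNF43, which clears Wnt receptors from the cell surface, had 3.12, 2.74 and 3.20 CPM in the shGXYLT2 libraries, against 0.317, 0.704 and 1.23 CPM in the shControl libraries (log2 fold change 1.92, edgeR adjusted p = 2.3e-04). TNFRSF19 was the 1 fall without any of shControl replicates 1, 2 and 3 or shGXYLT2 replicate 1. Of 12 tested relatives and partners of PROM1 2 fell and 0 rose. The phosphatase PTPRJ fell to 14.6 CPM in shGXYLT2, against 17.8 CPM in shControl (log2 fold change -0.28, edgeR adjusted p = 0.048), and passed in 4 of 14 alternatives. The falls numbered 0 without shControl replicates 1, 2 or 3 or shGXYLT2 replicate 2 and 1 without shGXYLT2 replicate 1; the rises numbered 1 without shControl replicate 2 and 2 without shGXYLT2 replicate 2 or 3.

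Relatives of NES and DCLK1 were few and included calls in both directions, beside 5.31% risen and 6.84% fallen among all tested genes. Of 12 tested intermediate filament genes related to NES 1 rose and 2 fell, with a median log2 fold change of -0.08. SYNM (synemin), a filament protein that co-assembles with vimentin, fell to 82.5 CPM in shGXYLT2, against 96.8 CPM in shControl (edgeR adjusted p = 0.0203), and the cytolinker DST to 112 CPM, against 136 CPM (edgeR adjusted p = 0.0482), with libraries that overlapped. SYNM passed in 9 and DST in 7 of 14 alternatives. PRPH (peripherin) rose to 5.64 CPM in shGXYLT2, against 3.76 CPM in shControl. The rises numbered 0 without shControl replicate 1 or 3 or shGXYLT2 replicate 3, and the falls 0 without shControl replicate 1 or 3 and 1 without shControl replicate 2 or shGXYLT2 replicate 1. VIM (vimentin), the filament that nestin joins, averaged 2526 CPM in shGXYLT2 and 2669 CPM in shControl (edgeR adjusted p = 0.39).

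Of 10 tested genes of the doublecortin family and its partners 1 rose and 2 fell, with a median of -0.05. KIF1A, a kinesin that carries vesicles along microtubules, had 18.9, 16.4 and 18.8 CPM in the shGXYLT2 libraries, against 42.1, 40.1 and 38.2 CPM in the shControl libraries (log2 fold change -1.16, edgeR adjusted p = 1.3e-08). MAP1B, a microtubule-associated protein of growing axons, fell to 178 CPM in shGXYLT2, against 228 CPM in shControl. NEUROD1, a neuroendocrine transcription factor, rose to 1.22 CPM in shGXYLT2, against 0.430 CPM in shControl, and the rises numbered 0 without shControl replicate 2 or 3. DCLK2, the closest relative of DCLK1, averaged 6.04 CPM in shGXYLT2 and 6.34 CPM in shControl (edgeR adjusted p = 0.78).

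Neural progenitor genes, the usual company of NES, included 22 tested genes, of which 3 rose and 2 fell, with a median of 0.11. ID2, an inhibitor of differentiation factors, NUMB, an inhibitor of Notch, and ZIC2, a zinc finger factor, rose by 0.43, 0.28 and 0.40 on the log2 scale. The adhesion molecule L1CAM fell to 36.5 CPM in shGXYLT2, against 53.0 CPM in shControl (edgeR adjusted p = 3.0e-05), and PAX7 to 5.40 CPM, against 8.13 CPM. The rises numbered 1 without shControl replicate 3 and the falls 1 without shControl replicate 1.

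Markers of other cell types were examined beside these genes. Of 15 fibroblast genes 4 rose and 5 fell, with a median of -0.05. DCN, LUM and COL1A2 rose to 250, 240 and 66.3 CPM in shGXYLT2, against 186, 180 and 51.9 CPM in shControl, while COL1A1 and POSTN fell to 542 and 386 CPM in shGXYLT2, against 824 and 509 CPM in shControl. THY1 is 1 of the falls in this list. Of 4 tested leukocyte genes, CXCR4 among them, LCP1 rose, at 1.64 CPM in shGXYLT2 and 0.445 CPM in shControl, and 0 fell; without shGXYLT2 replicate 1 there were 2 rises. The 20 leukocyte genes summed to 6.31 to 7.79 CPM in shGXYLT2 and 5.67 to 7.60 CPM in shControl, and 7 of them had no count. Of 5 tested endothelial genes 0 changed by edgeR, DESeq2 or limma-voom, with 0 at an unadjusted p below 0.05 in edgeR. The 14 endothelial genes summed to 43.5 to 51.2 CPM in shGXYLT2 and 52.8 to 56.1 CPM in shControl, and PECAM1, CDH5 and KDR were at 0. Where a list had 0 rises or 0 falls, DESeq2 and limma-voom also gave 0 in that direction. At an unadjusted p below 0.05 in edgeR there were 2 rises each among the THY1 and CD24 partners and the PROM1 relatives. Leukocyte genes had 1 fall at that level, which was CXCR4 itself. In the direction that had 0 calls, 0 genes reached it among CD44 splicing factors, the CXCR4 axis, GPI anchor genes and epithelial genes. Over all tested genes 25.5% reached an unadjusted p below 0.05 in edgeR, in either direction. The part of other cell types in the changes of THY1 and CXCR4 was not tested.

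**Figure D4:**
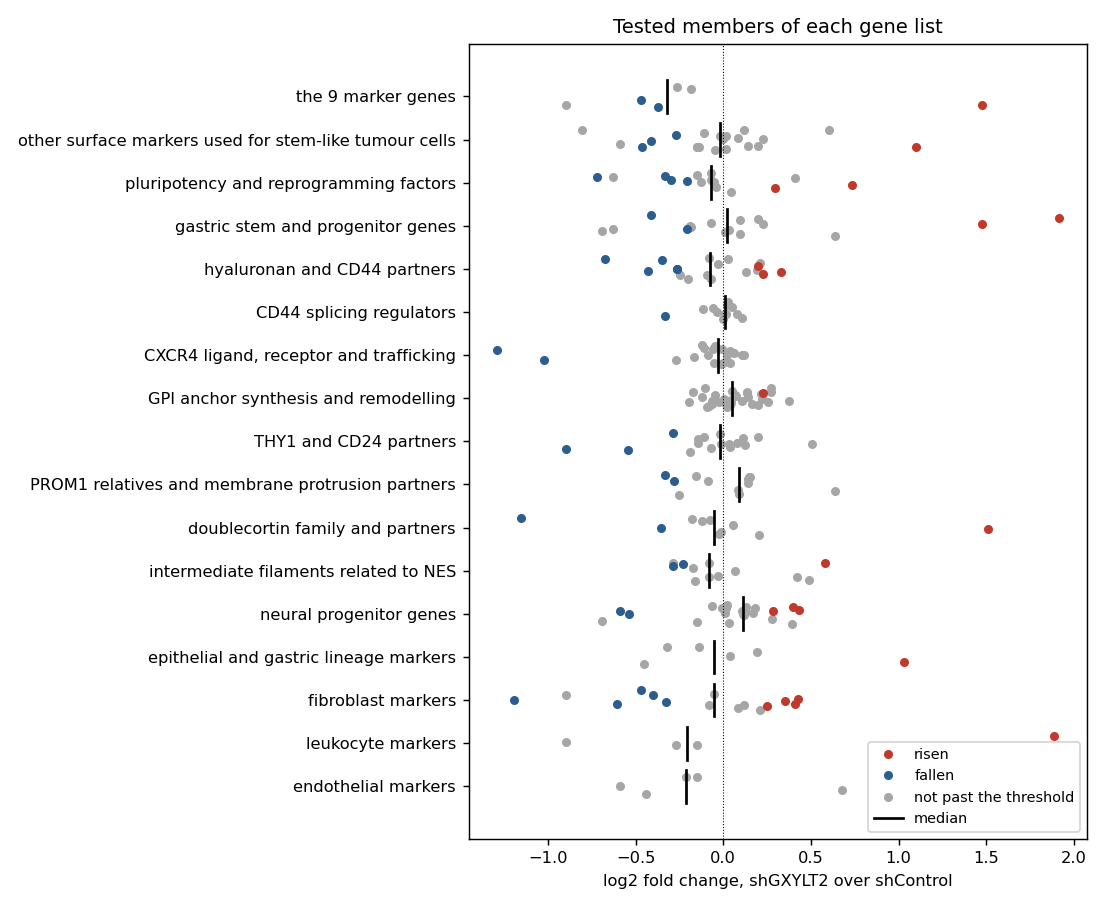
Log2 fold change (shGXYLT2 over shControl) of every tested gene in each list, a point per gene, red where it rose and blue where it fell past the adjusted p threshold of 0.05, with the list median as a black bar. The medians of the 16 other lists lie between -0.21 and 0.11, and that of the 6 tested markers is at -0.32.

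The calls of the tested markers were compared over normalizations, filters, tests and left-out libraries. THY1 lay between -0.52 and -0.39 on the log2 scale, NES between -0.40 and -0.33 and DCLK1 between 1.30 and 1.66, and each passed in 14 of 14 alternatives. Each alternative that gave a value kept the sign of all 6 genes.

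**Figure D5:**
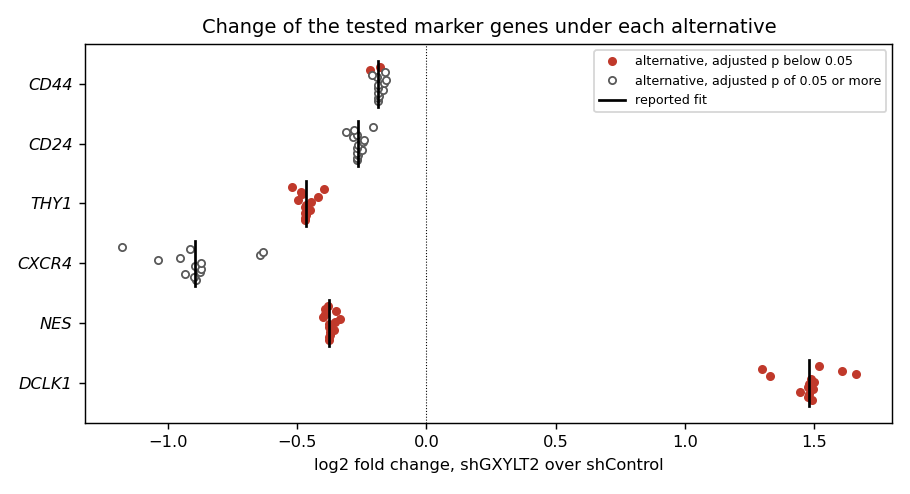
Log2 fold change (shGXYLT2 over shControl) of each tested marker gene under each alternative, filled red where the adjusted p was below 0.05 and open otherwise, with the reported value as a black bar. DCLK1, NES and THY1 are filled throughout, CD44 is filled in 2 of 14, and CD24 and CXCR4 are open throughout.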

How the data were processed

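Messenger RNA libraries were prepared with an Illumina stranded ligation kit, per the labels' protocols. HISAT2, StringTie and fastp and the build GRCh38.p13 are listed in the submitters' processing notes, with no versions, counting step or strand setting. What the authors deposited is 1 table of estimated counts, not normalized, of which 12.3% of values were not whole; they were rounded for the tests. The 9 genes and the gene lists were chosen with earlier results of these data known. Genes were filtered with filterByExpr by group, scaled by TMM and tested with the robust quasi-likelihood fit of edgeR 4.0.16 (R 4.3.3), group as the only term, two-sided, with Benjamini-Hochberg adjustment over 15693 genes. Tested genes held 99.9% of counts, and the common biological coefficient of variation was 6.50%. Alternatives used DESeq2 1.42.0 and limma 3.58.1. CPM values were TMM-scaled, except summed levels of lists. Positions and transcripts came from GENCODE release 29 (GRCh38), to which 92.9% of genes matched. Exact Poisson intervals and the 3-count limit cover counting error only. The intervals of fold changes came from the edgeR fit and also include the estimated spread between libraries. The gene length column has no stated definition. No pair of libraries agreed within sampling noise, so none was merged; this does not show that they came from separate cultures. The fit was tested on simulated data. Named genes are GXYLT2, the 9 markers, up to 3 risen and 3 fallen genes of each list by adjusted p, the 2 most abundant of a list with none, and the 3 genes most like each changed marker. ENG and EGFL7, the 2 for the endothelial list, averaged 28.1 and 16.2 CPM in shGXYLT2 and 31.2 and 18.8 CPM in shControl (edgeR adjusted p = 0.24 each). Overlapping genes, CXCL12, ACKR3, LGR5, SOX2, VIM, DCLK2, EPCAM and the other genes at or near 0 were named outside this rule. A gene that the rule names is not reported here.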

Additional observations from a re-analysis of the deposited data

How the results depend on the processing

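Over all genes the rises numbered 833 and ran from 397 to 1038 with 1 library left out, lowest without shControl replicate 3, and the falls numbered 1074 and ran from 563 to 1309; without shControl replicates 1 and 2 they were 399 and 455 rises and 591 and 697 falls. Over the 227 tested genes of the lists, 20 rises ran from 10 to 29 (13 without shControl replicate 1, 10 without shControl replicate 3) and 31 falls from 19 to 33 (19 without shControl replicate 1, 20 without shControl replicate 2). Among the 9 markers the rises stayed at 1 and the falls ran from 2 to 3, with CD44 added without shGXYLT2 replicate 2 or 3. The cause of these moves was not tested. Replicate numbers, taken from the sample titles, did not pair the libraries. The deposited columns are numbered 1, 3 and 4 for shGXYLT2 replicates 1 to 3 and 1, 2 and 4 for shControl replicates 1 to 3, so that replicate 2 sets column 3 beside column 2, and what either number marks is not stated. By title number, deviations of same-numbered libraries correlated at 0.01, -0.04 and -0.02, and shGXYLT2 replicate 1 correlated best with shControl replicate 2. With the replicate number as a block, 606 genes rose and 865 fell, and among the markers 1 rose and 2 fell; the falls among intermediate filament genes and the rises among other surface markers and GPI anchor genes then numbered 0, the falls among pluripotency factors 2, and those among gastric stem cell genes and PROM1 relatives 1 each. The order of levels per kilobase was the same with library totals and changed with the transcript length. CXCR4, at 8 to 28 counts per library, had no adjusted p in DESeq2 and was not tested under the filter at 1 CPM in 3 libraries. PROM1, NANOG and POU5F1 lay under the filter on low counts and had no fitted test; POU5F1 rested on 33 summed counts in shGXYLT2 and 18 in shControl.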
